A study of Mus musculus with 6 samples.

Results

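The genes of N-glycan assembly, trimming and branching carry out a single pathway, from the lipid-linked sugar chain made on dolichol to the branched chains of secreted glycoproteins. From a list of 56 such genes, all those whose RefSeq accession was found among the probe set names were taken. This gave 33 genes among 909 named genes and 1246 probe sets on an Affymetrix array focused on glycan genes. Each of the 33 had 1 probe set, so no choice between probe sets was needed. The other 23 listed genes were not analysed here, among them the catalytic subunits of the oligosaccharyltransferase, Stt3a and Stt3b, and the mannosidases Man1a and Man1b1.

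The samples were livers of male mice, 3 labelled wildtype and healthy and 3 labelled diabetic, the latter from a series on insulin-deficient diabetes. Total RNA from each was hybridised to its own array. Not given in the sources used here are the strain, the age, the means by which insulin was made deficient and any treatment that the groups shared. The design text counts 3 diabetic mice and 3 wildtype samples, and does not say whether a wildtype RNA came from 1 animal of its own. To the extent that samples share animals, the p-values cover only the spread between these samples, which may be technical. The question the study posed was about glycosaminoglycan enzymes and plasma lipids; the N-glycan genes were measured on the same arrays, and are compared here between the same groups.

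N-glycosylation begins on the cytosolic face of the endoplasmic reticulum (ER), where a sugar chain is built on dolichol phosphate, flipped into the lumen and completed there. The oligosaccharyltransferase then moves the whole chain to asparagines of a new protein. Glucoses and mannoses are trimmed while the protein folds, and in the Golgi N-acetylglucosamine (GlcNAc), galactose and fucose are added as branches. Hepatocytes secrete most plasma glycoproteins, so the pathway is a heavily used one in liver.

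No N-glycan gene passed the test for a difference between diabetic and wildtype liver. In limma's fit over all 1246 probe sets, 0 of the 33 had an adjusted p under 0.05, against 0.321% of all probe sets, and the lowest adjusted p among them was 0.928. At an unadjusted p under 0.05 there was 1 of 33 (3.03%), the core fucosyltransferase gene Fut8, against 2.97% of all probe sets. The groups did not overlap for 2 of 33 (6.06%), Fut8 and the branching enzyme gene Mgat4b, against 7.87% of all probe sets. Both were higher in diabetic liver (4.57% of all probe sets), and 0 of 33 were lower without overlap (3.29%). All of these shares were near or below those of the whole array. In bulk liver RNA, fewer cells of a type and less RNA per cell cannot be told apart.

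Differences are given throughout as diabetic minus wildtype on the log2 scale of the deposited values, with the standard error (SE) from limma. Mean values were lower in diabetic liver for 23 of the 33 genes (69.7%), against 49.4% of all probe sets. The median difference was -0.034, against 0.0031 over all named genes. These 33 differences come from the same 6 arrays and are not independent of each other. The count of lower means was 23 when the array medians were set equal (47.4% of all probe sets) and 22 after quantile normalization (51.0%). It was 17, or 51.5%, without wildtype 1 (48.2% of all probe sets) and 17 without wildtype 2 (44.6%). It was 18, or 54.5%, without diabetic 3 (51.4%) and 19, or 57.6%, without diabetic 2 (47.8%). Without diabetic 1 it was 22, or 66.7% (46.2% of all probe sets), and without wildtype 3 it was 24, or 72.7% (51.3%).

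The intervals show what size of difference the arrays could still hold. The 95% confidence interval lay within 0.5 in either direction for 20 of the 33 genes, and within 1 for 30 of them. Over all named genes, 68.6% of intervals lay within 0.5 and 60.6% of those of the N-glycan genes did. The median spread of an N-glycan gene within a group (SD) was 0.18, against 0.15 over all named genes. Among genes above the array's median on all 6 arrays these spreads were 0.21 in both sets. Of these brighter genes, 12 of 22 N-glycan genes had an interval within 0.5 (54.5%), against 52.3% of named genes.

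**Figure D1:**
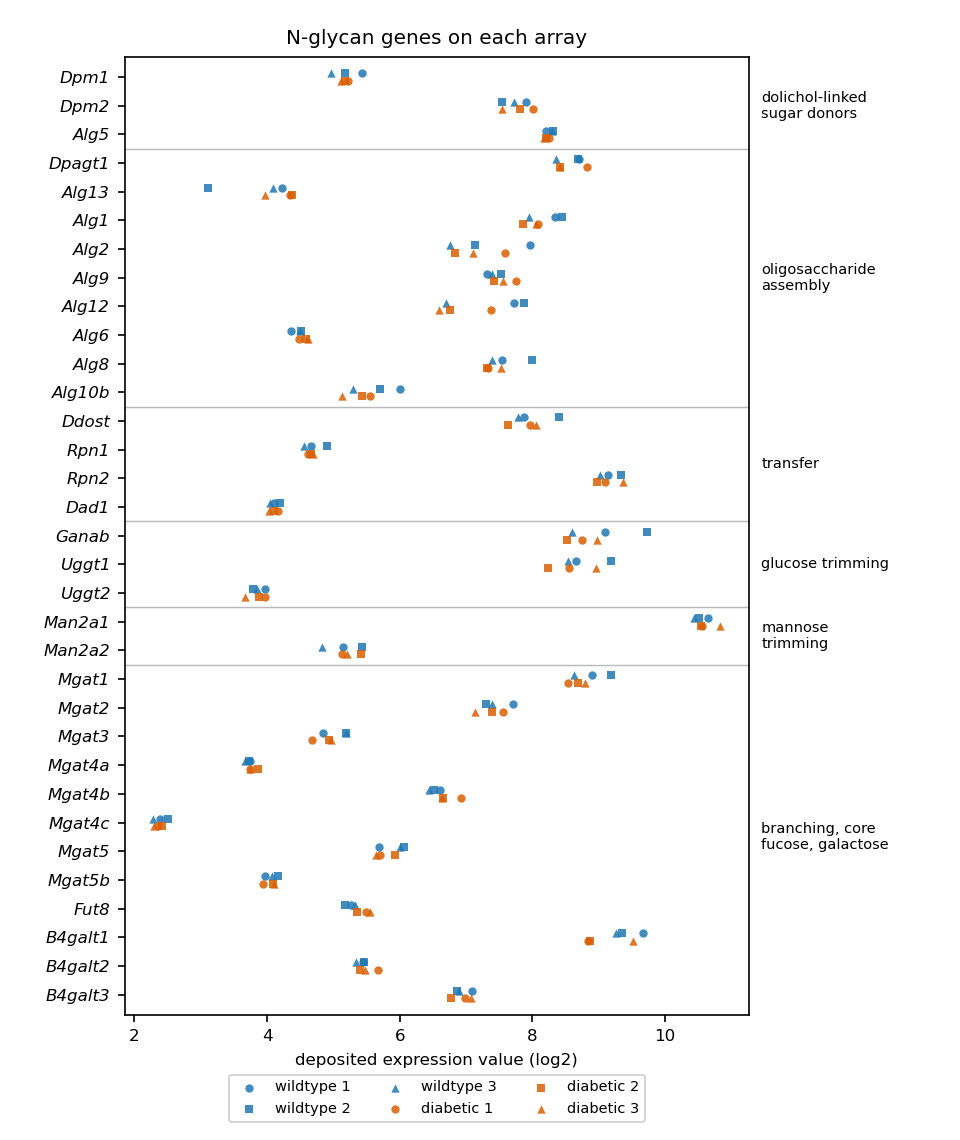
Deposited log2 value of each of the 33 N-glycan genes on each array, with wildtype arrays in blue, diabetic arrays in orange and the replicate number as the shape. The colours are intermixed for nearly all genes; for Fut8 and Mgat4b all diabetic arrays lie to the right of all wildtype arrays.

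The plot of values by array shows each gene at its own level. A value depends on its probes as well as on the RNA, so the levels of different genes are not set against each other here. Of the 33 genes, 22 lay above the median of all probe sets on every array and 8 lay below it on every array (Alg13, Alg6, Rpn1, Dad1, Uggt2, Mgat4a, Mgat4c and Mgat5b). The other 3, Dpm1, Man2a2 and Mgat3, lay on both sides. No detection call was used, so differences in the dim genes may be masked by background.

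The tissue label was checked with hepatocyte markers. All 9 measured markers of 12 listed lay above the array median on every array, the asialoglycoprotein receptor genes Asgr1 and Asgr2 among them, and 3 of the 9 had an unadjusted limma p under 0.05 (2.97% of all probe sets). Mbl2, a mannose-binding lectin, was higher in diabetic liver by 1.03 (limma adjusted p = 0.041), and Igfals, the acid-labile subunit that binds IGF1 complexes, differed by -0.61 without overlap (limma adjusted p = 0.928). Igfbp1, an IGF-binding protein gene that insulin represses, read 6.26, 6.50 and 10.09 in wildtype and 10.65, 8.90 and 11.52 in diabetic liver. Wildtype 3 thus lay inside the diabetic range for Igfbp1, and this gene made up much of the spread in the summed level. Angptl4, another listed marker, read 8.72, 8.81 and 10.405 in wildtype and 10.57, 9.67 and 10.59 in diabetic liver, again with wildtype 3 inside. For Asgr1, Mbl1 and Fgf21 wildtype 3 also lay inside the diabetic range. It lay outside for Asgr2, Mbl2, Igfals and Igf1, though only just for Asgr2, at 9.32 against 9.35 on diabetic 3. The summed log2 level of the 9 markers ran from 84.1 to 91.0 in wildtype and from 89.6 to 92.9 in diabetic liver. For 8 measured macrophage markers of 11 listed the sums were 40.7 to 43.3 in wildtype and 39.6 to 44.5 in diabetic liver, with 4 above the median on every array. For 5 endothelial markers of 11 listed they were 28.3 to 29.4 and 27.4 to 29.2, with 4 above the median. For 5 stellate cell markers of 8 listed they were 24.8 to 27.6 and 24.8 to 26.2, with 3 above the median. For 3 lymphocyte markers of 11 listed they were 12.4 to 12.7 and 12.5 to 12.9, with 1 above the median. The ranges of the groups overlapped for every list, and no value was at 0 on this log scale. None of 5 listed cholangiocyte markers was analysed here. The part of cell content in the differences below was not tested.

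Arrays differed from each other within a group in a way that many N-glycan genes shared. Wildtype 2 was the highest of the 6 arrays for 15 of the 33 genes (45.5%), against 24.4% of all named genes. Wildtype 3 was the highest for 0 of 33, against 14.5%, and the lowest for 10 of 33 (30.3%), against 22.4%. On wildtype 3 only 6 of the 33 genes lay above their own mean over the arrays, the smallest such number on any array. Diabetic 2 had 11 genes above their own mean, and diabetic 3 had 18. Wildtype held both the array with the most genes above their mean, wildtype 2, and that with the fewest, wildtype 3. With 1 array left out at a time, 32 of the 33 differences moved by over 1.5 times or changed sign in at least 1 fit. The exception was Fut8. Small differences meet this rule easily, and the like count over all named genes was not taken. In the same fits 19 of the 33 genes (57.6%) always kept their sign, against 51.8% of named genes.

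**Figure D2:**
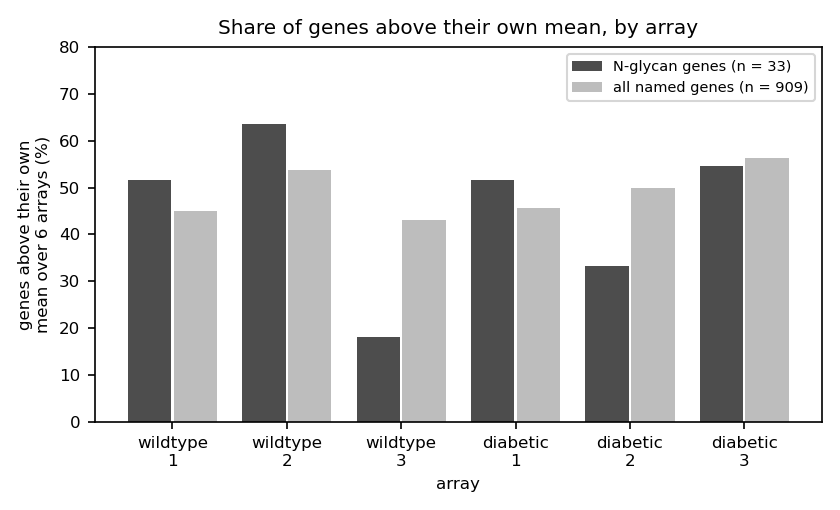
Percentage of genes on each array that lie above their own mean over the 6 arrays, for the 33 N-glycan genes (dark bars) and all 909 named genes (light bars). The dark bars run from 18.2% on wildtype 3 to 63.6% on wildtype 2, and the light bars from 43.1% to 56.2%.

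In the shares by array, the N-glycan genes varied more between arrays than the named genes did. A share over a small set can vary more than a share over a large set whatever the genes, and no set of like size was compared. On wildtype 2 the share was 63.6% for N-glycan genes and 53.8% for all named genes. On diabetic 2 it was 33.3% against 49.8%. On wildtype 1 and diabetic 1 it was 51.5% for the N-glycan genes on each, against 44.99% and 45.7%.

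The supply of dolichol-linked sugars was covered by 3 of 8 listed genes, 1 with a higher and 2 with a lower mean. Alg5, which makes dolichol-phosphate-glucose, was the steadiest of the 33. It read 8.20, 8.30 and 8.29 on wildtype 1, 2 and 3, and 8.24, 8.20 and 8.18 on diabetic 1, 2 and 3. The groups overlapped, and the difference was -0.06 (SE 0.07, 95% confidence interval -0.23 to 0.12; limma adjusted p = 0.975). Dpm1, the catalytic subunit of dolichol-phosphate-mannose synthase, read 5.43, 5.18 and 4.96 in wildtype and 5.22, 5.17 and 5.11 in diabetic liver. All diabetic values lay inside the wildtype range, with a difference of -0.02, which was 0.10 without wildtype 1 and -0.14 without wildtype 3. Dpm2, its regulatory subunit, read 7.90, 7.54 and 7.72 in wildtype and 8.003, 7.81 and 7.53 in diabetic liver. Its difference was 0.06 with overlapping groups, and it was -0.03 without wildtype 2 and -0.05 without diabetic 1. The 3 intervals all lay within 0.5.

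Assembly of the lipid-linked oligosaccharide was covered by 9 of 12 listed genes. Of these, 6 had a lower and 3 a higher mean, with a median difference of -0.11, and 0 passed. The median was 0.028 without wildtype 1, 0.037 without diabetic 2 and -0.37 without wildtype 3. This step held the largest differences of the pathway in both directions, at Alg12 and Alg13, and also its largest spreads.

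Dpagt1, which starts the chain by placing GlcNAc phosphate on dolichol phosphate, read 8.71, 8.69 and 8.36 in wildtype and 8.82, 8.41 and 8.42 in diabetic liver. The groups overlapped, with diabetic 1 the highest array and wildtype 3 the lowest. The difference was -0.03 (SE 0.15, 95% confidence interval -0.41 to 0.34, limma adjusted p = 0.990). Alg13, a subunit of the enzyme that adds the second GlcNAc, read 4.23, 3.11 and 4.08 in wildtype and 4.35, 4.38 and 3.97 in diabetic liver. Only wildtype 2 was low for Alg13, and the difference of 0.42 (SE 0.30) became 0.07 without that array. Its probe set lay below the array median throughout.

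Alg1 adds the first mannose. It read 8.34, 8.45 and 7.95 in wildtype and 8.08, 7.86 and 8.05 in diabetic liver, a difference of -0.25 (SE 0.15). Wildtype 3 lay among the diabetic arrays, and without it the difference was -0.40 (limma adjusted p = 0.537). Without wildtype 2, the highest array for Alg1, it was -0.15. Alg2, which adds the next mannoses, differed by -0.11 with one of the widest intervals, -0.92 to 0.70. Wildtype 1 and diabetic 1 were the high arrays of each group for Alg2, at 7.96 and 7.59, and the other 4 lay between 6.76 and 7.14. Without wildtype 1 its difference was 0.22.

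Alg9 and Alg12 are mannosyltransferases of the ER lumen. Alg9 read 7.32, 7.53 and 7.40 in wildtype and 7.75, 7.42 and 7.56 in diabetic liver, and its groups overlapped. Its difference was 0.16 (SE 0.11), and 0.07 without diabetic 1. Alg12 read 7.72, 7.87 and 6.70 in wildtype and 7.38, 6.76 and 6.59 in diabetic liver. Wildtype 1, wildtype 2 and diabetic 1 were the high arrays, so the groups overlapped. The means were 7.43 ± 0.63 and 6.91 ± 0.42 (SD, n = 3 each), a 1.44-fold lower mean in diabetic liver, with a log2 difference of -0.52 (SE 0.35, 95% confidence interval -1.37 to 0.33; limma adjusted p = 0.928). Without wildtype 3 it was -0.89 (limma adjusted p = 0.537) and without wildtype 2 it was -0.30.

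Alg6, Alg8 and Alg10b add the glucoses that mark the chain as complete. Alg6 differed by 0.11 and Alg8 by -0.26, the latter with wildtype 2 as the high array, at 7.99 against 7.32 to 7.55 on the other 5. Without wildtype 2 the Alg8 difference was -0.08. Alg10b read 6.01, 5.70 and 5.29 in wildtype and 5.55, 5.43 and 5.12 in diabetic liver. Within each replicate number the diabetic array was the lower, but the groups overlapped. The Alg10b difference was -0.30 (SE 0.20; limma adjusted p = 0.928), at -0.49 without wildtype 3 and -0.13 without wildtype 1.

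Many genes of ER protein processing are induced in the unfolded protein response through the ER stress response element (ERSE), spelled CCAAT, then any 9 bases, then CCACG. The 250 bases before each RefSeq start site (build GRCm38.p6) were searched on both strands, and 28 of the 33 genes had an entry. Alg12 was the 1 of 28 with these letters (3.57%), against 0.13% of 27025 genes with a promoter entry. Among other N-glycan pathway genes, Canx, the ER lectin chaperone calnexin, was the 1 of 29. Both are printed whole, 5′ to 3′ on the gene's own strand, with the match in capitals, because they carry the rare match. Ganab and Ddost are shown beside them because, like Alg12, they were highest on wildtype 2, a choice made after their values were seen; their capitals mark the CCAAT box alone, on either strand (CCAAT or ATTGG). For these the 150 bases nearest the start are printed, which hold every CCAAT match of their 250-base window. The Alg12 sequence is chr15:88819319-88819568 (minus strand), Canx is chr11:50325674-50325923 (minus strand), Ganab is chr19:8897907-8898056 (plus strand) and Ddost is chr4:138304588-138304737 (plus strand).
Alg12: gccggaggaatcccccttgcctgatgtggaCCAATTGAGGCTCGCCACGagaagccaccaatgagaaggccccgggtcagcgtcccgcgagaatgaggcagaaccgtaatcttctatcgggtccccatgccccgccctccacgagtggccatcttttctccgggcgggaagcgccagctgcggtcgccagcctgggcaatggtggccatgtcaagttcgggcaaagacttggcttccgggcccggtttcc
Canx: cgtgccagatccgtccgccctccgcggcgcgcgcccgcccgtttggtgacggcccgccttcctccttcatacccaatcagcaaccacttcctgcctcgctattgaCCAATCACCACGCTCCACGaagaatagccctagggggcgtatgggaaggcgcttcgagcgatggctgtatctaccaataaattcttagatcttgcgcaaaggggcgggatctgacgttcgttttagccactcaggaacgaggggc
Ganab: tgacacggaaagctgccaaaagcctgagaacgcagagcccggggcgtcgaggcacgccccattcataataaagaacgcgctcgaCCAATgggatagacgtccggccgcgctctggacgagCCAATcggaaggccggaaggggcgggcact
Ddost: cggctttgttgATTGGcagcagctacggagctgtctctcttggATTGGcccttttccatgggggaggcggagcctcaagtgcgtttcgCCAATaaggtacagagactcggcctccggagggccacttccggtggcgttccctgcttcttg

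In Alg12 the match lay 220 to 202 bases before the start, and in Canx 145 to 127 bases before it. The shorter CCAAT is part of the ERSE and is common when counted whatever follows it. Of 28 N-glycan genes 13 held it, Alg12 among them (46.4%), against 37.5% of all genes. The unfolded protein response element, searched in a form of 8 letters, was found in 0 of 28 (0.603% of all genes). The motif GTAAACA, bound by FOXO factors that insulin holds in check, was found in 1 of 28, Mgat4c (3.57%), against 3.54% of all genes. A match only says that these letters are in the window. Canx read 7.74, 8.01 and 7.47 in wildtype and 7.76, 7.50 and 8.07 in diabetic liver. Like Alg12 it was high on wildtype 2 and low on wildtype 3 and diabetic 2, but diabetic 3, the lowest array for Alg12, was its highest.

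The oligosaccharyltransferase was covered by 4 of 9 listed genes, all of them non-catalytic subunits, and all 4 means were lower in diabetic liver by 0.02 to 0.13, but higher without wildtype 2. Ddost read 7.88, 8.40 and 7.78 in wildtype and 7.96, 7.64 and 8.06 in diabetic liver. Wildtype 2 was the high array and the others were intermixed. The Ddost difference was -0.13 (SE 0.19), at 0.05 without wildtype 2 and -0.25 without wildtype 3. Rpn1, ribophorin I, read 4.66, 4.90 and 4.56 in wildtype and 4.62, 4.66 and 4.69 in diabetic liver, again with wildtype 2 highest. Its difference was -0.05 (SE 0.10), and 0.04 without that array. Rpn2 and Dad1 each differed by -0.02, with intervals from -0.34 to 0.30 and from -0.21 to 0.18. For 3 of these 4 genes the interval lay within 0.5, but Rpn1 and Dad1 among them lay below the array median on every array. Differences at these dim genes may be masked by background.

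Glucose trimming was covered by 3 of 5 listed genes, all 3 with a lower mean; after quantile normalization 6 of the 7 transfer and glucose trimming genes were lower. Ganab, the catalytic subunit of glucosidase II, read 9.10, 9.72 and 8.60 in wildtype and 8.75, 8.53 and 8.97 in diabetic liver. Wildtype 1 and 2 lay above all diabetic arrays, while wildtype 3 lay among them. The means were 9.14 ± 0.56 and 8.75 ± 0.22 (SD, n = 3 each), 1.31-fold lower in diabetic liver, with a difference of -0.39 (SE 0.28, 95% confidence interval -1.07 to 0.29; limma adjusted p = 0.928). The Ganab difference was -0.10 without wildtype 2 and -0.66 without wildtype 3. Uggt1, which puts glucose back on unfolded glycoproteins, read 8.65, 9.19 and 8.53 in wildtype and 8.55, 8.23 and 8.96 in diabetic liver. Its difference was -0.21 (SE 0.24), at -0.01 without wildtype 2, -0.34 without wildtype 3 and -0.40 without diabetic 3. The dim paralog Uggt2 differed by -0.03 (SE 0.10).

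Ganab, Uggt1 and Ddost ranked the arrays alike at both ends: wildtype 2 was the highest and diabetic 2 the lowest for all 3, as for Alg1 and Alg8. Canx also had a high wildtype 2, at 8.01, and a low diabetic 2, at 7.50. The 5 genes other than Canx had a lower mean in diabetic liver, and Canx differed by 0.04. Genes picked for a highest wildtype and a lowest diabetic array tend to have such a mean, so it is no further result. Without wildtype 2 the differences were -0.10 for Ganab, -0.08 for Alg8, -0.15 for Alg1, -0.01 for Uggt1 and 0.05 for Ddost. The source of the shared levels was not tested.

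**Figure D3:**
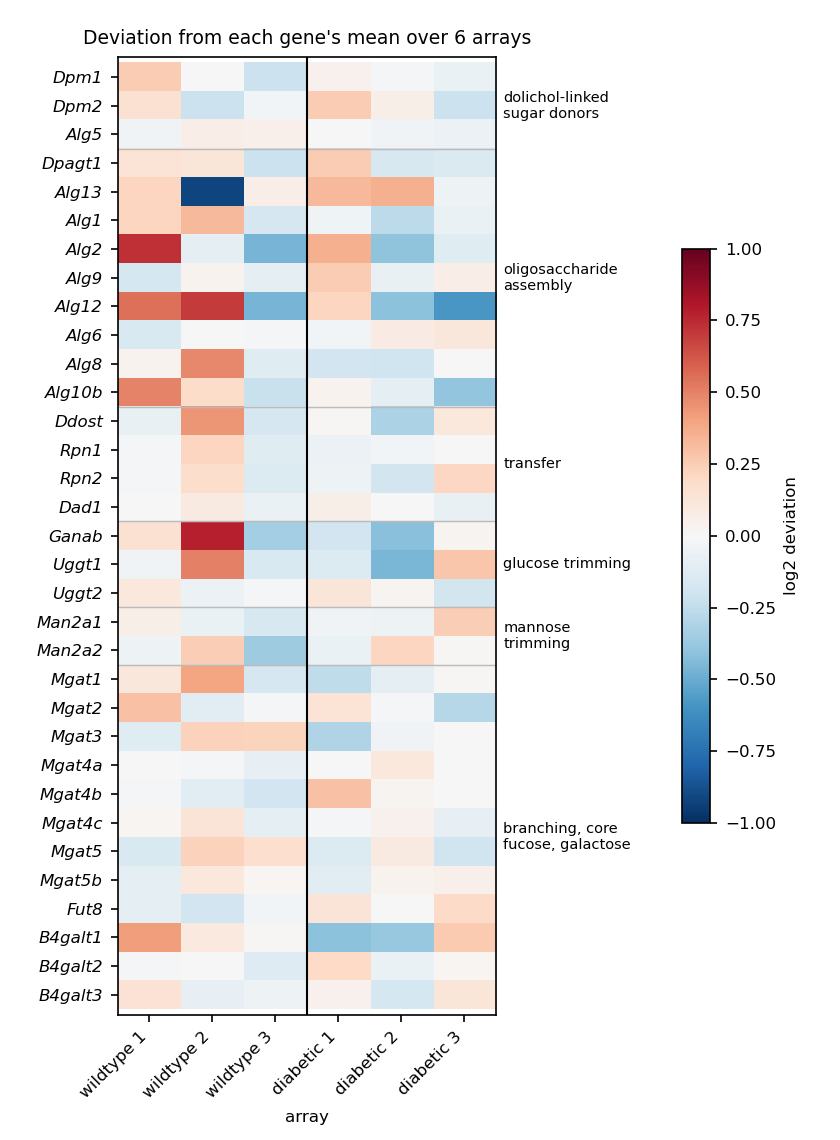
Log2 deviation of each N-glycan gene (rows, in pathway order) from its own mean over the 6 arrays (columns), with a line between wildtype and diabetic arrays. Red cells are above the gene's mean and blue cells below; wildtype 2 is mostly red and wildtype 3 mostly blue from oligosaccharide assembly to glucose trimming.

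The map of deviations shows where the arrays parted. Over the assembly genes the median deviation was 0.21 on wildtype 1, 0.12 on wildtype 2 and -0.17 on wildtype 3. On the diabetic arrays 1, 2 and 3 it was 0.21, -0.16 and -0.07. Over the transfer genes it was highest on wildtype 2, at 0.20, and over the 3 glucose trimming genes it was 0.50 on wildtype 2 and -0.42 on diabetic 2. For the branching genes all array medians lay between -0.04 and 0.05.

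Mannose trimming was covered by 2 of 10 listed genes, both Golgi alpha-mannosidases that act after the first GlcNAc is added. Man2a1 read 10.64, 10.52 and 10.43 in wildtype and 10.56, 10.54 and 10.84 in diabetic liver. Only diabetic 3 lay above the wildtype range, and the difference of 0.11 (SE 0.11, 95% confidence interval -0.16 to 0.38) was 0.02 without it. After quantile normalization it was -0.02. Man2a2 read 5.14, 5.44 and 4.83 in wildtype and 5.13, 5.41 and 5.20 in diabetic liver. All diabetic values lay within the wildtype range, with a difference of 0.11 (SE 0.17) that was -0.04 without wildtype 3.

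Branching, core fucose and galactose were covered by all 12 listed genes, 4 with a higher and 8 with a lower mean and a median difference of -0.030. For 9 of the 12 the interval lay within 0.5, and for all 12 within 1. The 9 include Mgat4a, Mgat4c and Mgat5b, which lay below the array median on every array.

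Fut8 adds the core fucose, the fucose on the innermost GlcNAc of the chain. It read 5.26, 5.17 and 5.33 in wildtype and 5.49, 5.36 and 5.55 in diabetic liver. Every diabetic array lay above every wildtype array, though diabetic 2 and wildtype 3 were only just apart. The means were 5.25 ± 0.08 and 5.47 ± 0.10 (SD, n = 3 each), 1.16-fold higher in diabetic liver. The difference was 0.21 (SE 0.09, 95% confidence interval 0.0025 to 0.42), with an unadjusted limma p of 0.048 and an adjusted p of 0.928. Leaving out any 1 array gave between 0.17 and 0.27. The unadjusted limma p was not under 0.05 with array medians set equal, with array weights or without the dimmest 25% of probe sets. Nor was it with a robust eBayes that also fits a trend.

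Mgat4b starts a further antenna on the complex chain and, of the Mgat4 genes, was the 1 above the array median. It read 6.61, 6.52 and 6.44 in wildtype and 6.93, 6.65 and 6.63 in diabetic liver. The groups did not overlap, but wildtype 1 came close to diabetic 2 and 3. The difference was 0.22 (SE 0.11, 95% confidence interval -0.04 to 0.47; limma adjusted p = 0.928), and 0.12 without diabetic 1. Its paralogs Mgat4a and Mgat4c, both dim, differed by 0.07 and -0.04.

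Mgat1 adds the first GlcNAc and so opens the way to hybrid and complex chains. It read 8.90, 9.18 and 8.62 in wildtype and 8.54, 8.69 and 8.80 in diabetic liver, with overlapping groups. Its difference was -0.22 (SE 0.16), at -0.09 without wildtype 2 and -0.36 without wildtype 3. Mgat2, which adds the GlcNAc that makes a chain complex, read 7.71, 7.31 and 7.39 in wildtype and 7.55, 7.40 and 7.13 in diabetic liver. The groups overlapped, with a difference of -0.11 (SE 0.15) that was 0.01 without wildtype 1 and 0.01 without diabetic 3.

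Mgat5 makes the antenna that most often carries long lactosamine chains. It read 5.68, 6.07 and 6.003 in wildtype and 5.70, 5.92 and 5.63 in diabetic liver. Wildtype 1 lay among the diabetic arrays, and the difference was -0.17 (SE 0.13). It was -0.28 without wildtype 1, -0.09 without wildtype 2 and -0.11 without diabetic 3. Mgat3, which adds the bisecting GlcNAc, differed by -0.22 (SE 0.14) near the array median. Mgat5b, a relative that acts mainly on O-mannose chains, differed by -0.02 at a dim probe set.

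B4galt1, the main enzyme adding galactose to the antennae, read 9.67, 9.35 and 9.26 in wildtype and 8.85, 8.87 and 9.51 in diabetic liver. Diabetic 1 and 2 lay below all wildtype arrays, while diabetic 3 lay above 2 of the 3 wildtype arrays. The means were 9.43 ± 0.22 and 9.08 ± 0.38 (SD, n = 3 each), 1.28-fold lower in diabetic liver. The difference was -0.35 (SE 0.21, 95% confidence interval -0.85 to 0.15; limma adjusted p = 0.928). Without diabetic 3 it was -0.57, with an adjusted p of 0.865 by limma, and without wildtype 1 it was -0.23. Its relatives B4galt2 and B4galt3 differed by 0.10 and -0.01, and both intervals lay within 0.5.

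**Figure D4:**
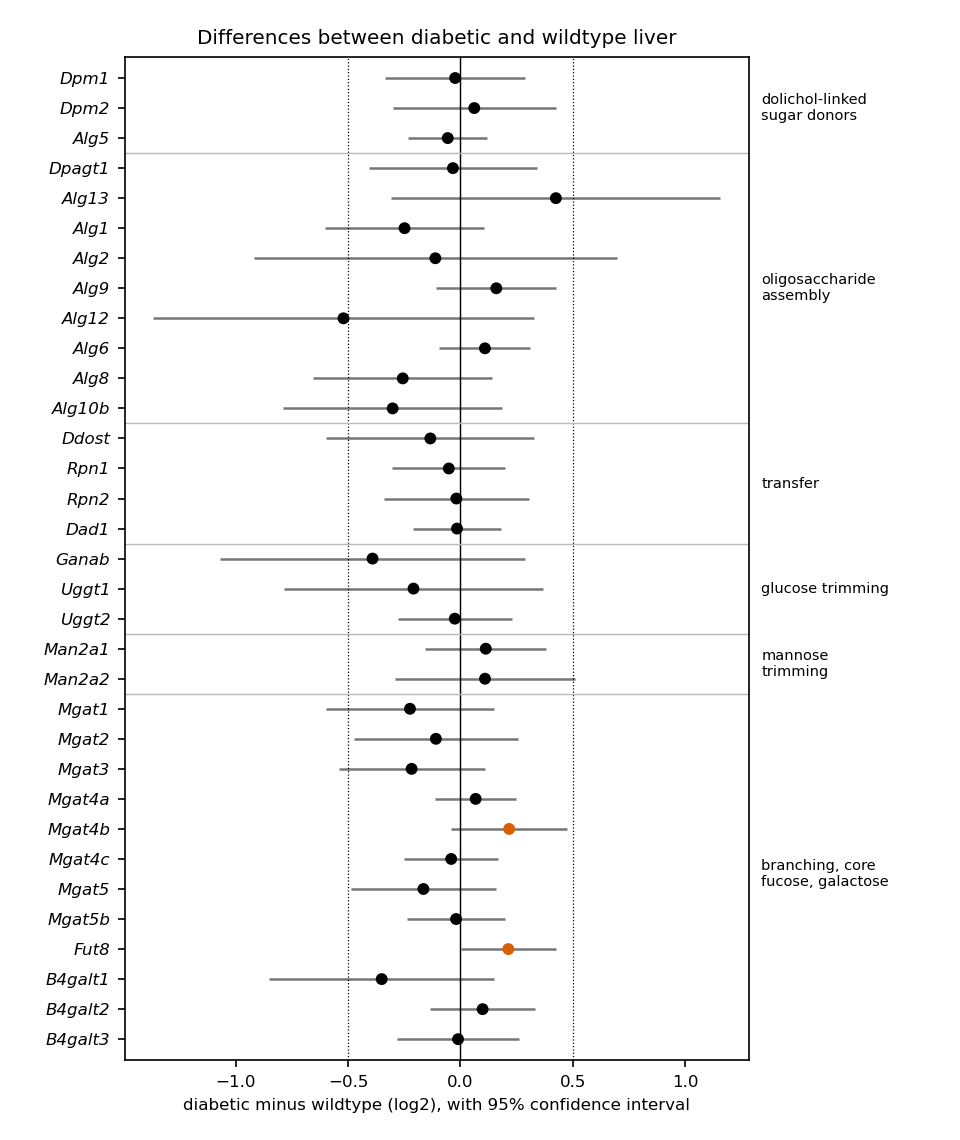
Difference between diabetic and wildtype liver (log2, diabetic minus wildtype) for each N-glycan gene in pathway order, with the 95% confidence interval as a grey line and dotted lines at 0.5 in both directions; orange points are the 2 genes whose groups did not overlap. The interval includes 0 for all but Fut8, and 20 of the 33 intervals lie between the dotted lines.

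As the plot of differences shows, wide intervals were most frequent in the assembly and glucose trimming steps. Of the 9 assembly genes 3 had an interval within 0.5, the dim Alg6 among them. Of the 3 glucose trimming genes 1 did, the dim Uggt2. Alg12, Alg13 and Ganab were the 3 genes whose interval reached past 1.

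Same-numbered arrays of the 2 groups shared deviations over all probe sets, so the fit was also run with the replicate number as a block. Over the 33 N-glycan genes alone, those deviations correlated at 0.607, -0.316 and -0.048 for numbers 1, 2 and 3, so only number 1 paired there. The blocked limma fit gave 0 N-glycan genes at an adjusted p under 0.05, with a lowest adjusted p of 0.822. At an unadjusted p under 0.05 it gave 4 of 33 (12.1%), against 4.33% of all probe sets. The 4 were Alg10b and Mgat3, with lower means, and Mgat4b and Fut8, with higher means. The block leaves the differences as they are and changes only the errors.

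The count at an unadjusted p under 0.05 also rested on wildtype 3, the wildtype array with the high Igfbp1 and Angptl4 values. Whether the count is linked to these values was not tested. Without wildtype 3, 6 of 33 genes (18.2%) had such a p, against 6.02% of all probe sets. They were Alg1, Alg12, Alg10b, Ganab and Mgat1 with lower means and Fut8 with a higher mean. The lowest adjusted p among these was 0.537 by limma. Leaving out another array gave 1 such gene or 0: Mgat3 without wildtype 1 (5.38% of all probe sets), 0 without wildtype 2 (3.13%), 0 without diabetic 1 (2.89%), Fut8 without diabetic 2 (2.57%) and B4galt1 without diabetic 3 (3.93%).

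The other genes around the pathway, from lists of sugar nucleotide supply, outer sugars, ER lectins and lysosomal breakdown, gave 34 measured of 58 listed. Of these 17 had a higher and 17 a lower mean, with a median difference of 0.0018, and 0 passed. In the supply list, 8 of 18 means were higher and 10 lower. Ugp2, which makes UDP-glucose, the donor for dolichol-phosphate-glucose, read 9.06, 8.58 and 8.66 in wildtype and 9.75, 9.53 and 9.32 in diabetic liver. The lowest diabetic value exceeded the highest wildtype value, with a difference of 0.77 (SE 0.17; limma adjusted p = 0.619). Pmm1, a phosphomannomutase on the way to GDP-mannose, read 6.07, 5.85 and 6.06 in wildtype and 5.52, 5.76 and 5.81 in diabetic liver. All diabetic arrays were lower, with a difference of -0.30 (SE 0.11; limma adjusted p = 0.928).

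Among 8 measured genes of outer sugars, 4 means were higher and 4 lower. B4galt5, a galactosyltransferase best known for lactosylceramide synthesis, differed by -0.46 (SE 0.30), at -0.18 without wildtype 1 and -0.78 without wildtype 3. St3gal3, a sialyltransferase, differed by -0.24 (SE 0.19), at -0.09 without wildtype 2. Of the ER lectins Canx differed by 0.04 and Lman2l, a cargo receptor, by -0.05, with both intervals within 0.5.

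Of 6 measured genes of lysosomal breakdown 4 means were higher and 2 lower, and the groups did not overlap for 2 of them, both higher in diabetic liver (4.57% of all probe sets). Neu1, which removes sialic acid, read 7.88, 7.93 and 7.75 in wildtype and 8.07, 8.09 and 8.05 in diabetic liver. Its difference was 0.21 (SE 0.08; limma adjusted p = 0.928). Aga, which cuts the chain's link to asparagine, read 8.70, 8.63 and 8.84 in wildtype and 8.91, 8.86 and 9.04 in diabetic liver, a difference of 0.22 (SE 0.09; limma adjusted p = 0.928). For both genes every diabetic array lay above every wildtype array, but neither passed the test.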

How the data were processed

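The deposited values are log2 expression values that the authors made with RMA, per the submitters' processing notes; the RMA version is not given in the sources used here. They ran from 2.03 to 13.45, with array medians of 4.93 to 5.06. Of 1246 probe sets, 984 carried a RefSeq accession and 963 were named through the RefSeq table of GRCm38.p6, giving 909 genes and leaving 283 probe sets unnamed. Genes with several probe sets were represented by the one with the highest mean. RMA normalizes between arrays, so a shift common to nearly the whole array is removed.

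Group means were compared over all probe sets with lmFit and eBayes of limma 3.58.1 in R 4.3.3, two-sided, with Benjamini-Hochberg adjustment, a threshold of 0.05, and 4 residual and 2.44 prior degrees of freedom. The fit was tested on simulated data. Over all probe sets, deviations of same-numbered arrays correlated at 0.397, 0.138 and 0.162 for numbers 1, 2 and 3, above the limit of 0.1 for a pairing. The labels do not say what a number stands for. The number of arrays limits the precision.

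Values on every array are given for genes with an unadjusted p under 0.05 or groups that did not overlap, up to 2 per direction and step with the largest differences, 11 set genes where measured, and 2 genes per neighbouring list by p. Other genes given with values, such as Alg1, Alg2 and Alg8, were added after their values were seen. The genes and lists were chosen with earlier results of these data known. Promoter sequences are RefSeq's (GRCm38.p6), and motifs were searched in Python 3.11.15.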

Additional observations from a re-analysis of the deposited data

How the results depend on the processing

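Under every alternative run, 0 of the 33 N-glycan genes had an adjusted p under 0.05, also at a threshold of 0.10, and the lowest adjusted p of a gene named by the rule was 0.537. The median difference of the 33 genes stayed below 0 in the 14 settings that gave it, between -0.096 without wildtype 3 and -0.010 without wildtype 2, and moved by less than the spread of the array medians (SD 0.082). These settings include the main fit. They also include the replicate block, the robust eBayes with a trend and the dimmest probe set per gene, which cannot change the differences of the 33. The number of probe sets called on the whole array, 4, was 0 with an ordinary linear model, 0 with a robust eBayes that also fits a trend and 0 with the replicate block, and between 0 and 1 when 1 array was left out; the cause was not tested. The replicate block changed no call among the N-glycan genes. Small differences changed sign: quantile normalization gave 0.017 for Dpm1 and -0.018 for Man2a1, and array weights gave -0.011 for Canx. With 1 array left out, differences ran from -0.14 to 0.098 for Dpm1, -0.049 to 0.19 for Dpm2, -0.17 to 0.037 for Dpagt1, -0.25 to 0.055 for Ddost, -0.13 to 0.044 for Rpn1, -0.043 to 0.26 for Man2a2, -0.21 to 0.0092 for Mgat2, -0.13 to 0.014 for Lman2l and -0.11 to 0.18 for Canx. In all, 19 of 33 genes (57.6%) kept their sign in all 6 such fits, against 51.8% of named genes. Taking the dimmest probe set of a gene changed nothing for the 33, each with 1 probe set. Signal over background limits the 8 dim genes.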
